A study of Mus musculus with 48 samples.

Results

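Markers of fibro-adipogenic progenitors were followed in bulk muscle RNA as a list of 9 genes: Pdgfra, Cd34, Ly6a, Dpp4, Smoc2, Cxcl12, Dcn, Fbn1 and Gsn. The 9 genes were chosen by name as markers of these cells, with Fbn1 and Dcn as matrix products, and all 9 were present among the 14125 genes of the count table and among the 12592 genes that passed the filter on low counts. The study sequenced the mixed gastrocnemius of male C57BL6J mice, a muscle of the calf. Cort_ATGLi mice (n = 14) received corticosterone at 100 ug/ml in the drinking water and the lipase inhibitor atglistatin at 571 mg/kg in Teklad 8640 food, and Cort_CON mice (n = 14) received the same corticosterone water with control food. EtOH_ATGLi mice (n = 10) received water with 1% ethanol as the vehicle and the atglistatin food, and EtOH_CON mice (n = 10) received the vehicle water with control food. Treatment lasted 2 weeks in every group, and the ages of the mice are not given in the labels. Of the Cort_CON mice, 9 are labelled diabetic and 5 nondiabetic. Every mouse of the other groups is labelled nondiabetic, so comparisons with Cort_CON also differ in disease state. The labels do not say if ethanol was also in the corticosterone water, so the water groups may differ in ethanol too.

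Fibro-adipogenic progenitors are the mesenchymal stromal cells that lie between muscle fibres. They express the PDGF receptor alpha, secrete much of the muscle's extracellular matrix, support the satellite cells that repair fibres, and can turn into adipocytes or fibroblasts when muscle is damaged or diseased. Corticosterone, the main glucocorticoid of mice, acts through the glucocorticoid receptor, and atglistatin inhibits adipose triglyceride lipase, which starts the breakdown of stored fat.

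Values are CPM, read counts at transcript 3′ ends scaled to the library total, which were not scaled by gene length, so levels are compared between groups and not between genes. Total counts ran between 10453888 and 24034481 per library, and 47 of the 48 libraries held only even counts. The exception was EtOH_ATGLi p13, with 49.6% odd counts and the highest total. Each library has its own glucose and insulin label and was taken as 1 mouse, which the labels do not state outright. If that reading is wrong, the p-values measure only the spread between these samples. The glucocorticoid target Fkbp5 was higher in corticosterone muscle on both diets, by 2.47 on the log2 scale on atglistatin and by 3.53 on control food. Its rise differed between the diets (interaction -1.07, adjusted p = 0.0121 by edgeR). In vehicle mice Fkbp5 was also higher on atglistatin than on control food, by 0.78 (adjusted p = 0.0219 by edgeR). EtOH_CON p01 and Cort_ATGLi p41 stood apart from their groups, with the lowest median r to the others, 0.952 and 0.957. As a check of the tissue, 8 fast-fibre genes summed to between 74695 and 147038 CPM over the libraries, and the 9 progenitor genes, all detected in every library, summed to between 858 and 2261 CPM. In such bulk RNA, fewer progenitor cells and less RNA per cell cannot be told apart. Several of the genes are also read in other cells, Cd34 and Ly6a in endothelium and Gsn in muscle fibres among them, so the label describes the list and not the source of every read.

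Each gene occupies its own place in the GRCm38 genome, with annotation from GENCODE M21. Pdgfra lies on chromosome 5 from 75152292 to 75198215 and Cxcl12 on chromosome 6 from 117168535 to 117181367. Fbn1 spans 125300594 to 125507993 and Dpp4 spans 62330073 to 62412231, both on the minus strand of chromosome 2, where Gsn lies from 35256380 to 35307892. Cd34 lies on chromosome 1 from 194938819 to 194961279, Dcn on chromosome 10 from 97479609 to 97518143, Ly6a on chromosome 15 from 74994877 to 74998031 and Smoc2 on chromosome 17 from 14279506 to 14404790. No other counted gene overlapped any of them. Of the 50-base stretches in the last 500 bases of the Ly6a transcripts, 66 of 812 also occur in Ly6c1, Ly6c2, Ly6i or I830127L07Rik, so part of the Ly6a count is uncertain, while the other 8 genes shared none.

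Because 8 of the 9 genes were lower under corticosterone, promoters were read for the letters that the glucocorticoid receptor is known to bind. RefSeq promoters on GRCm38.p6, each 250 bases before and 50 after an annotated start, were at hand for 6 of the 9 genes, as 8 sequences. The receptor's palindrome, AGAACA and TGTTCT with any 3 bases between them, was searched on both strands and occurred in 0 of the 8, and in 0.00913% of all 32851 promoters. Its half-site AGAACA, or TGTTCT on the other strand, which the palindrome contains on each side, occurred in 1 of the 8 and in 19% of all promoters. The 4 shown are those of the genes with the largest and the smallest fold change on control food, of a secreted factor, and of the only gene with a half-site, which is in capitals.
Fbn1 (chr2:125506389-125506688, minus strand): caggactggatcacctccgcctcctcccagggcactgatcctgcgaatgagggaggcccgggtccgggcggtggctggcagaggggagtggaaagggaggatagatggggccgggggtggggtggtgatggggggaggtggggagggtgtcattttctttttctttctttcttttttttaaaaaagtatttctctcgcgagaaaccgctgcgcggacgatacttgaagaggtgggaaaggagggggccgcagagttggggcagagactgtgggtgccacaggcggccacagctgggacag
Cxcl12 (chr6:117168285-117168584, plus strand): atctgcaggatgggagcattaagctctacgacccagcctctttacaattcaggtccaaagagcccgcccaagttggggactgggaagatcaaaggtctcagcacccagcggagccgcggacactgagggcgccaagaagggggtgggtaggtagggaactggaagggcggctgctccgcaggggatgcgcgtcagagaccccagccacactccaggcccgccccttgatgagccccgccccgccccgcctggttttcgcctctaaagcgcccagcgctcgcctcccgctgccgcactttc
Dpp4 (chr2:62412182-62412481, minus strand): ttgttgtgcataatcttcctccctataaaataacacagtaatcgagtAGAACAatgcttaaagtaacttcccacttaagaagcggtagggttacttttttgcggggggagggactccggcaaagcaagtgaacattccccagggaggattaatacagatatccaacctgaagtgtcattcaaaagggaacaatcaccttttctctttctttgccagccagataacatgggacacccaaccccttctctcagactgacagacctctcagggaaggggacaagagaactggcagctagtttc
Pdgfra (chr5:75152001-75152300, plus strand): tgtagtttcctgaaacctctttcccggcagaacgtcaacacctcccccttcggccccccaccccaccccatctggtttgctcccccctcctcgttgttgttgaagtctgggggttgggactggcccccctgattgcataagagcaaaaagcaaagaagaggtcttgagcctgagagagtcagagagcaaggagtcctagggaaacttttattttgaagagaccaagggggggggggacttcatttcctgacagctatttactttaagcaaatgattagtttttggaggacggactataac
The Dpp4 half-site begins at -203 relative to the start. The letters describe these windows only, and binding was not measured.

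Corticosterone lowered most of the list on control food. In Cort_CON muscle, 8 of the 9 genes were lower than in EtOH_CON and 0 were higher, and the remaining gene, Pdgfra, did not pass. Across all 12592 genes tested, 38.4% passed in either direction and 19.5% were lower. The median log2 fold change was -1.04 over the 9 genes and -0.0011 over all genes. For Cd34, Smoc2, Dpp4, Cxcl12 and Fbn1 every Cort_CON library lay below every EtOH_CON library, which held for 2.33% of all genes. Adjusted p-values are from edgeR's quasi-likelihood test with Benjamini-Hochberg adjustment over all genes tested, with a threshold of 0.05.

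**Figure D1:**
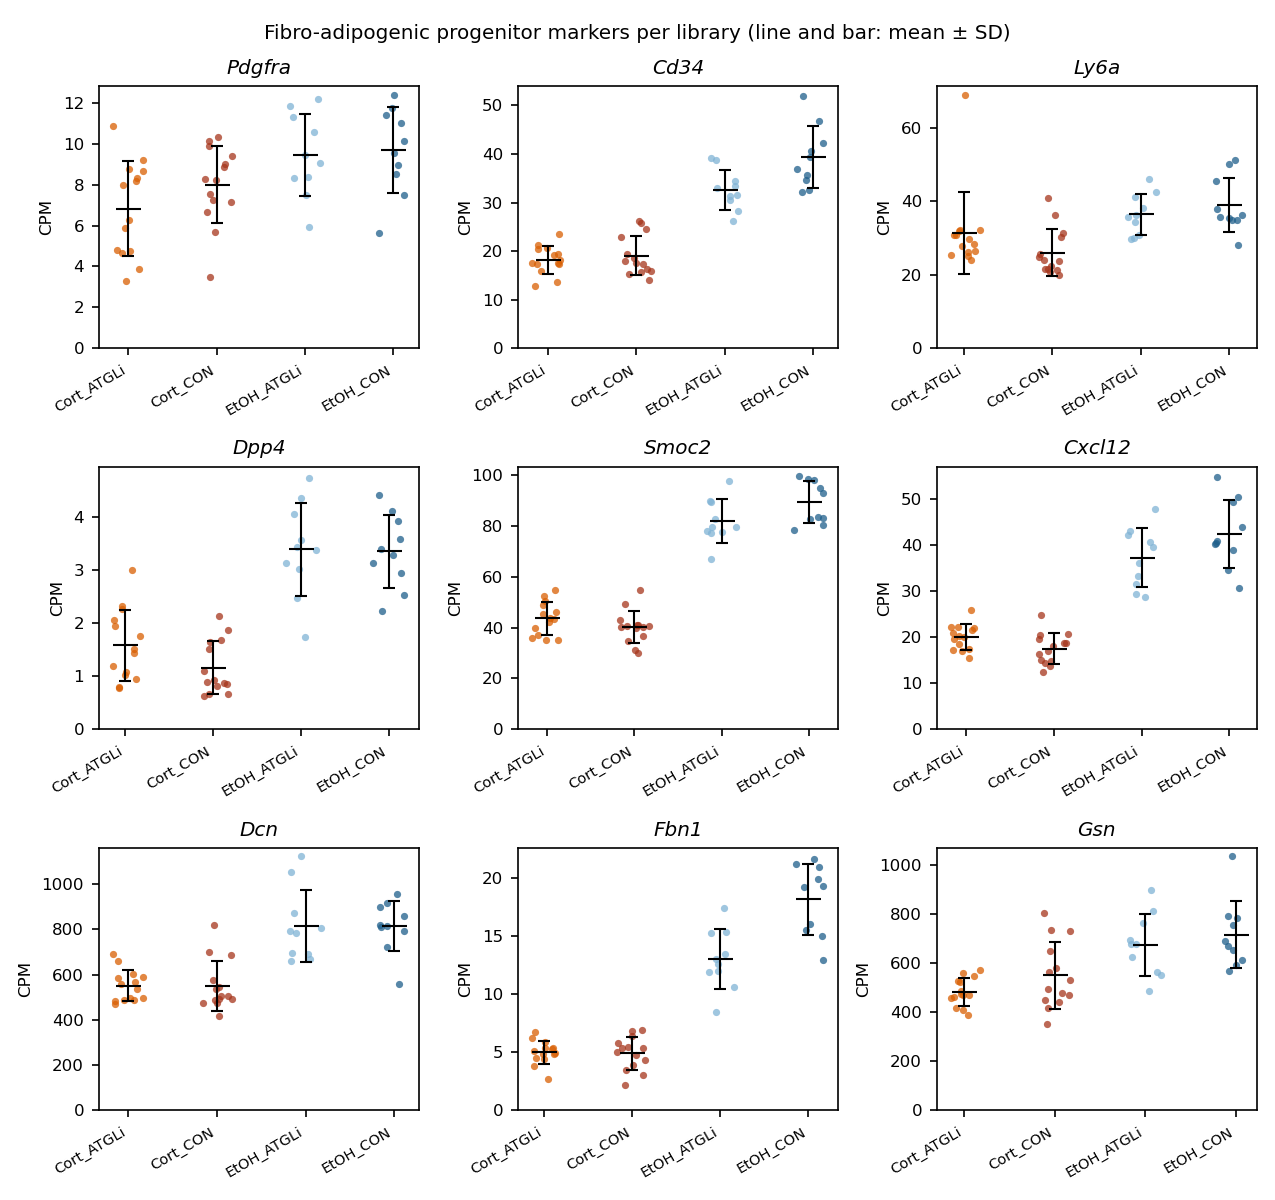
CPM (y axis, linear from 0) of the 9 progenitor genes in each library, by group (x axis), with the mean and SD as lines. Fbn1, Cxcl12, Smoc2 and Cd34 separate both corticosterone groups from their vehicle groups, while Pdgfra overlaps in all 4 groups and a single Cort_ATGLi library stands at 68.9 CPM for Ly6a.

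The receptor and surface markers did not move by the same amount. Pdgfra, the receptor tyrosine kinase that defines these cells, ran from 3.48 to 10.3 CPM in Cort_CON with a median of 8.24, and in EtOH_CON the lowest, median and highest values were 5.64, 9.85 and 12.4 CPM. The groups overlapped, 11 of 14 Cort_CON libraries lay below the EtOH_CON mean, and the log2 fold change was -0.27 ± 0.15 (SE, adjusted p = 0.159, 95% interval -0.58 to 0.04). Cd34, a sialomucin of progenitor and vascular cells, had a lowest, median and highest value of 14.1, 17.8 and 26.2 CPM in Cort_CON, against 32.1, 38.1 and 52.1 CPM in EtOH_CON. The groups did not overlap, and Cd34 fell by 1.04 on the log2 scale (SE 0.097, adjusted p = 2.64e-13), to 48.6% of the vehicle level.

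Ly6a, which encodes the surface antigen Sca-1, had 19.9, 23.9 and 40.8 CPM as lowest, median and highest in Cort_CON, against 28.04, 36.0 and 51.2 CPM in EtOH_CON. Its groups overlapped, with 10 of 14 Cort_CON libraries under the lowest EtOH_CON library, and its log2 fold change was -0.58 ± 0.13 (SE, adjusted p = 0.000285). Dpp4, a surface peptidase that marks interstitial progenitors, had the fewest counts of the list, with between 8 and 34 counts per Cort_CON library. It had 0.629, 0.913 and 2.14 CPM in Cort_CON, against 2.23, 3.34 and 4.41 CPM in EtOH_CON, and fell by 1.52 on the log2 scale (SE 0.20, adjusted p = 1.34e-08). Every Cort_CON library was lower than every EtOH_CON library.

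Both secreted factors fell with no overlap between the groups. Cxcl12, the chemokine that retains leukocytes and stem cells in their niches, had 12.4, 17.5 and 24.8 CPM as lowest, median and highest in Cort_CON, against 30.7, 40.6 and 54.7 CPM in EtOH_CON. It stood at 41.3% of the vehicle level, and its log2 fold change was -1.27 ± 0.097 (SE, adjusted p = 1.89e-16). Smoc2, a calcium-binding matricellular protein, had 30.2, 40.5 and 54.9 CPM in Cort_CON, against 78.5, 88.1 and 99.6 CPM in EtOH_CON. Its log2 fold change was -1.15 ± 0.079 (SE, adjusted p = 4.38e-18), which left it at 45.2% of the vehicle level.

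Of the matrix products, Fbn1 fell more than Dcn, with a difference of -1.32 in the log2 ratio of Fbn1 to Dcn, Cort_CON minus EtOH_CON (adjusted permutation p = 5.3e-05). Fbn1, which encodes the fibrillin of elastic microfibrils, had 2.20, 5.22 and 6.95 CPM as lowest, median and highest in Cort_CON, against 12.96, 19.3 and 21.6 CPM in EtOH_CON. That was 27.2% of the vehicle level, the largest fall of the 9, and its log2 fold change was -1.88 ± 0.13 (SE, adjusted p = 4.09e-18). Dcn, the proteoglycan decorin that binds collagen fibrils and TGF-beta, had 418, 504 and 821 CPM in Cort_CON, against 560, 817 and 957 CPM in EtOH_CON, and the groups overlapped. Its log2 fold change was -0.57 ± 0.095 (SE, adjusted p = 2.32e-06), with 13 of 14 Cort_CON libraries under the EtOH_CON mean. Gsn, the actin-severing protein gelsolin, had 350, 511 and 803 CPM in Cort_CON, against 567, 679 and 1033 CPM in EtOH_CON, a log2 fold change of -0.38 ± 0.11 with overlapping groups (SE, adjusted p = 0.00326).

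The same 8 genes were lower when Cort_CON was limited to its 5 nondiabetic mice, beside 2869 of 13084 genes that passed in either direction. The log2 fold changes of the 8 were between -0.41 for Gsn and -1.70 for Fbn1, with Pdgfra at -0.15 (adjusted p = 0.659 by edgeR). Over the other alternatives the adjusted p of Pdgfra on control food was at least 0.103, and 0.0716 at the lowest with 1 library left out.

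On the atglistatin diet corticosterone also lowered 8 of the 9 genes and raised 0, with Ly6a the gene that did not pass. Over all genes 30% passed in either direction and 15% were lower. The median log2 fold change was -0.84 over the 9 genes and -0.0016 over all genes. Cd34, Smoc2, Cxcl12 and Fbn1 did not overlap between Cort_ATGLi and EtOH_ATGLi, against 1.61% of all genes.

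Fbn1 again fell most, with 2.67, 5.02 and 6.76 CPM as lowest, median and highest in Cort_ATGLi, against 8.45, 12.9 and 17.5 CPM in EtOH_ATGLi (log2 fold change -1.37 ± 0.13, SE, adjusted p = 8.81e-13). Dpp4 had 0.779, 1.48 and 2.9996 CPM in Cort_ATGLi, against 1.74, 3.41 and 4.74 CPM in EtOH_ATGLi, and 8 of 14 Cort_ATGLi libraries lay under the lowest EtOH_ATGLi library. Its log2 fold change was -1.11 ± 0.20 (SE, adjusted p = 1.01e-05). Smoc2 had 34.95, 43.4 and 54.7 CPM in Cort_ATGLi, against 67.0, 79.5 and 97.6 CPM in EtOH_ATGLi, and Cxcl12 had 15.4, 20.1 and 26.0 CPM in Cort_ATGLi, against 28.7, 37.9 and 47.9 CPM in EtOH_ATGLi. Their log2 fold changes were -0.91 and -0.89.

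Cd34 fell by 0.84 on the log2 scale on atglistatin, with 12.9 to 23.6 CPM in Cort_ATGLi, against 26.2 to 39.1 CPM in EtOH_ATGLi. Dcn fell by 0.57 and Gsn by 0.48, each with overlapping groups. Pdgfra had 3.29, 7.11 and 10.9 CPM in Cort_ATGLi, against 5.91, 9.23 and 12.2 CPM in EtOH_ATGLi, and its log2 fold change was -0.46 ± 0.15 (SE, adjusted p = 0.0202). When each library of the 2 groups was left out in turn, the Pdgfra adjusted p ranged between 0.00643 and 0.0479. Pdgfra passed on atglistatin and not on control food, but the difference between the diets did not pass (interaction -0.18, 95% interval -0.63 to 0.26).

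Ly6a had 23.99, 29.1 and 68.9 CPM as lowest, median and highest in Cort_ATGLi, against 29.7, 36.0 and 46.01 CPM in EtOH_ATGLi, and its log2 fold change was -0.21 ± 0.13 (SE, adjusted p = 0.222). The value of 68.9 CPM belongs to Cort_ATGLi p41, above every library of all groups, and without that library the log2 fold change was -0.35 (adjusted p = 0.00515 by edgeR), which makes 9 of 9 genes lower. With each of the 24 libraries of these groups left out in turn, its adjusted p ranged between 0.00515 and 0.366, and p41 was the only library whose absence changed the call. In the same library the 10 leukocyte markers summed to 258 CPM, where the next Cort_ATGLi library had 110 CPM, and the 8 adipocyte markers summed to 851 CPM, where the next had 433 CPM. Its 8 fast-fibre genes summed to 74695 CPM, the lowest of the 14 Cort_ATGLi libraries. Their part in the Ly6a value was not tested.

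**Figure D2:**
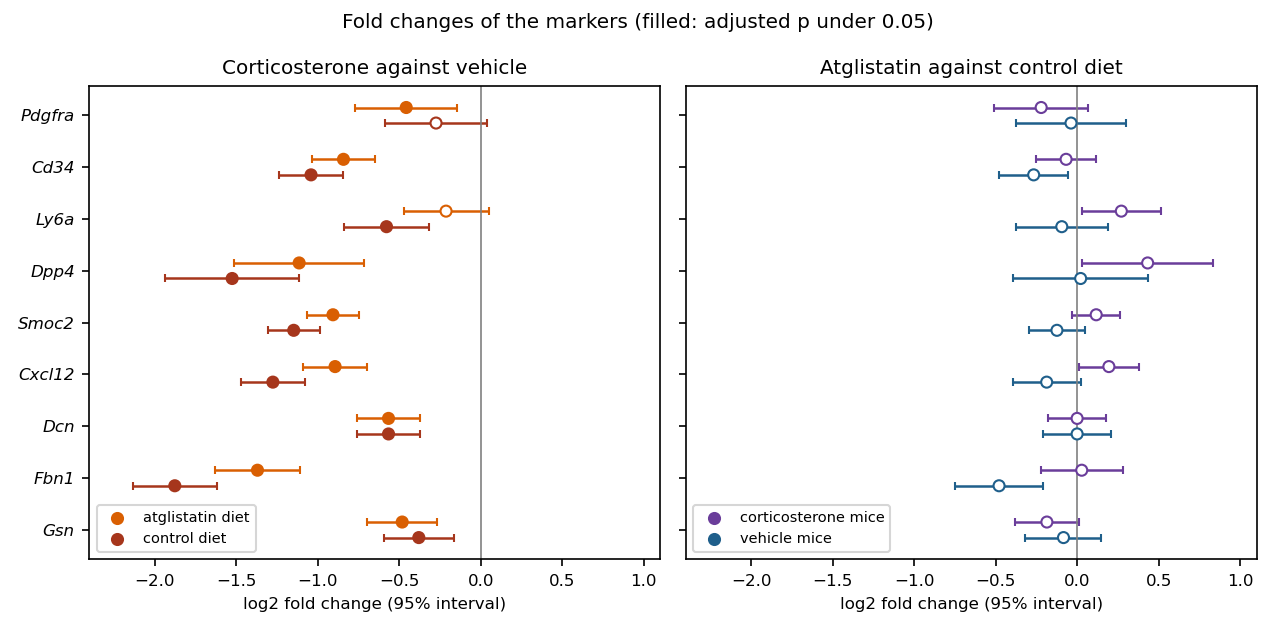
Log2 fold changes with 95% intervals (x axis) of the 9 progenitor genes (y axis) for corticosterone against vehicle on each diet (left) and for atglistatin against control food in each water group (right). Filled points passed: 8 genes in each corticosterone comparison, all lower, and 0 genes in either atglistatin comparison.

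Atglistatin moved 0 of the 9 genes past the threshold in either water group, by edgeR, DESeq2 or limma voom. In vehicle mice, 0 of 9 passed between EtOH_ATGLi and EtOH_CON, against 0.0238% of all genes. That share rests on 3 genes, and the number was between 1 and 21 with 1 library left out, with 21 without EtOH_ATGLi p12. Of the 9, 2 genes, Cd34 and Fbn1, had an unadjusted p under 0.05, against 6.66% of all genes. Fbn1 had 8.45, 12.9 and 17.5 CPM in EtOH_ATGLi, against 12.96, 19.3 and 21.6 CPM in EtOH_CON. All 10 EtOH_ATGLi libraries lay below the EtOH_CON mean and 5 lay below its lowest library, and the log2 fold change was -0.48 ± 0.13 (SE, adjusted p = 0.178). Over 10 alternative fits by edgeR, DESeq2 or limma voom, the Fbn1 log2 fold change was between -0.53 and -0.39. Its adjusted p in those fits was between 0.051 and 0.448, and it passed in 0 of them. Cd34 had 26.2, 32.3 and 39.1 CPM in EtOH_ATGLi, against 32.1, 38.1 and 52.1 CPM in EtOH_CON, and its log2 fold change was -0.27 ± 0.10 (SE, adjusted p = 0.578). Beside these, 13 collagen genes summed to between 316 and 696 CPM in EtOH_ATGLi, against between 661 and 1090 CPM in EtOH_CON, and 0 of the 13 passed singly.

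In corticosterone mice, 0 of 9 genes passed between Cort_ATGLi and Cort_CON, against 1.6% of all genes, and 3 had an unadjusted p under 0.05, against 12.4%. These 3 were higher on atglistatin: Dpp4 by 0.43 ± 0.20, Ly6a by 0.27 ± 0.12 and Cxcl12 by 0.19 ± 0.091 (log2, SE), with adjusted p between 0.322 and 0.361. With 1 library left out the Ly6a difference was as low as 0.13. With only the nondiabetic Cort_CON mice Ly6a differed by 0.49, Dpp4 by 0.16 and Cxcl12 by 0.20, and 0 of 9 genes passed by edgeR. Over all Cort_CON mice, Fbn1 differed by 0.03 with a 95% interval of -0.22 to 0.28, and Dcn by -0.00025 with an interval of -0.18 to 0.18. Differences inside these intervals were not detectable with these libraries.

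The interaction, which asks whether corticosterone acted differently on the 2 diets, passed for 0 of 9 genes, against 0.0397% of all genes, which is 5 genes, or between 2 and 7 with 1 library left out. Smoc2, Cxcl12 and Fbn1 had an unadjusted p under 0.05, against 5.52% of all genes. For each, the estimated fall was smaller on atglistatin: the interaction was 0.51 ± 0.18 for Fbn1 (SE, adjusted p = 0.698), 0.38 ± 0.14 for Cxcl12 (adjusted p = 0.698) and 0.24 ± 0.11 for Smoc2 (adjusted p = 0.884). The vehicle groups had Fbn1 medians of 12.9 CPM in EtOH_ATGLi and 19.3 CPM in EtOH_CON, while the corticosterone groups had medians of 5.02 CPM in Cort_ATGLi and 5.22 CPM in Cort_CON. The corresponding interaction for Dcn was -2.15e-05, with an interval of -0.27 to 0.27.

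Within Cort_CON, 0 of 9 genes passed between diabetic and nondiabetic mice, and 0 of 13084 genes passed overall in edgeR's test, with 4.9% at an unadjusted p under 0.05 and none of the 9 among them. The labels do not say how diabetic was defined. Ly6a had 20.9, 24.7 and 40.8 CPM as lowest, median and highest in the 9 diabetic mice, against 19.9, 21.2, 21.6, 23.6 and 25.6 CPM in the 5 nondiabetic mice (log2 difference 0.32 ± 0.17, SE, adjusted p = 0.983 by edgeR). Cd34 had 14.1, 17.3 and 24.5 CPM in diabetic mice, against 16.3, 17.95, 19.4, 25.9 and 26.2 CPM in nondiabetic mice, with a log2 difference of -0.24 (adjusted p = 0.983 by edgeR). Correlations of the 9 genes with fed glucose in Cort_CON and with insulin in Cort_ATGLi were also tested, 18 relations in all, and 0 passed after adjustment. The lowest p belonged to Cd34 and glucose, with Pearson's r of -0.54 and Spearman's rho of -0.58 over 14 mice (permutation p = 0.047 and 0.032, adjusted p = 0.56 for each), and r was -0.38 without the 2 mice farthest from the median glucose.

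Ordered by median, EtOH_CON was highest for 8 of the 9 genes and EtOH_ATGLi for Dpp4, and both corticosterone groups stood below both vehicle groups for every gene. Every library of both corticosterone groups lay below every library of both vehicle groups in Smoc2, Cxcl12 and Fbn1. The share of all genes separated in this way was not computed. In Cd34 the highest Cort_CON library, at 26.18 CPM, just passed the lowest EtOH_ATGLi library, at 26.17 CPM, and the other pairs of a corticosterone and a vehicle group did not overlap. In Pdgfra, Ly6a, Dpp4, Dcn and Gsn neighbouring groups in the order overlapped throughout. The 2 vehicle groups overlapped with each other, and so did the 2 corticosterone groups, for all 9 genes.

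Since Pdgfra defines the cells and did not pass on control food, the other 8 genes were set over Pdgfra within each library, a measure added after the fold changes were seen. On control food, 5 of the 8 ratios were lower in Cort_CON than in EtOH_CON by a permutation test with 100000 resamples, two-sided and adjusted over 16 ratios. Fbn1 over Pdgfra had a mean log2 ratio of -0.70 ± 0.29 in Cort_CON and 0.91 ± 0.42 in EtOH_CON (SD, n = 14 and 10), a difference of -1.61 with no overlap (adjusted permutation p = 4e-05, from the smallest p that 100000 resamples give). The ratios of Dpp4, Cxcl12, Smoc2 and Cd34 differed by -1.21, -0.99, -0.87 and -0.76. Those of Ly6a, Dcn and Gsn differed by -0.31, -0.29 and -0.11, with adjusted permutation p of 0.19, 0.12 and 0.49.

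On atglistatin, 2 of the 8 ratios were lower: Fbn1 by 0.85 (adjusted p = 4e-05, permutation) and Smoc2 by 0.40 (adjusted p = 0.036, permutation). With Dcn in place of Pdgfra as the denominator, 5 of 8 ratios were lower on each diet. With either denominator some ratios were lower and others did not pass, and what this means for the cells was not tested. Pdgfra rested on between 32 and 307 counts per library.

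**Figure D3:**
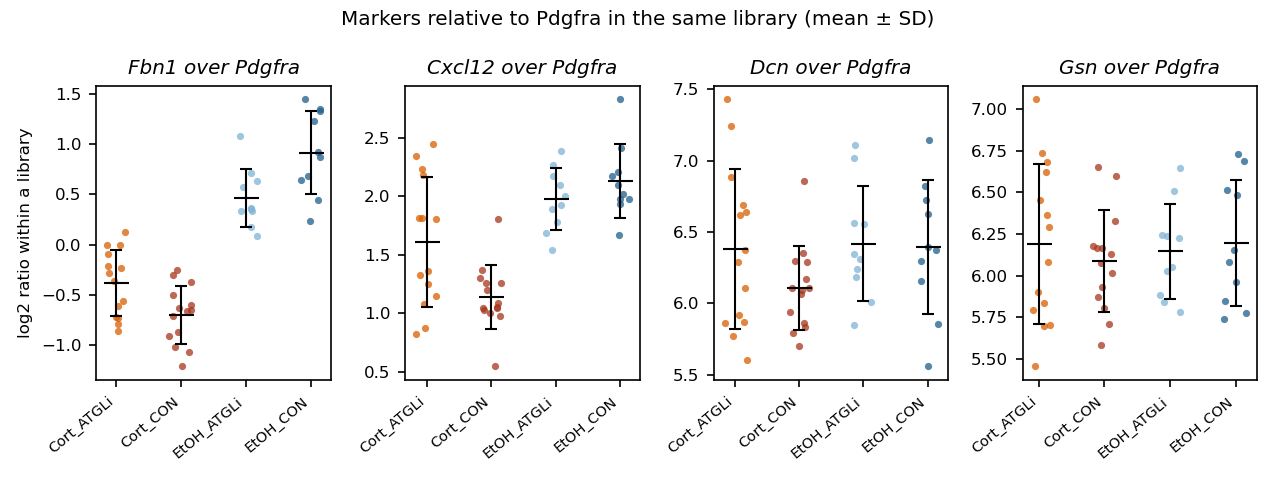
Log2 ratio of Fbn1, Cxcl12, Dcn and Gsn to Pdgfra (y axis) within each library, by group (x axis), with the mean and SD as lines. The Fbn1 ratio lies below 0 in every Cort_CON library and above 0 in every vehicle library, while the Dcn and Gsn ratios overlap in all groups.

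Pairs of the 9 genes were compared across libraries with group means subtracted. Of the 36 pairs, 35 had a positive Pearson's r, with a median of 0.29, and 11 passed after adjustment over the 36, all positive. The highest was Pdgfra with Fbn1, at r of 0.64 and Spearman's rho of 0.56 over 48 libraries (permutation p = 1e-05, the smallest that 100000 resamples can give, adjusted p = 0.00036), with r of 0.46 without the 2 libraries farthest from the median. Dcn with Gsn followed at 0.56, then Pdgfra with Smoc2 at 0.53, and Cxcl12 with Gsn and Ly6a with Gsn at 0.49 each. Ly6a had the lowest median r with the other 8 genes, at 0.10, and Gsn the highest, at 0.43. In 12 of the 36 pairs r was positive in all 4 groups. Within Cort_ATGLi alone 16 of the 36 pairs had a negative r, among them Cxcl12 with Dcn at -0.40 and Ly6a with Dcn at -0.30, and in EtOH_CON 12 did, against 2 in Cort_CON and 1 in EtOH_ATGLi. The share of positive pairs among other genes was not computed. Libraries also share depth and tissue makeup, whose part was not tested.

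**Figure D4:**
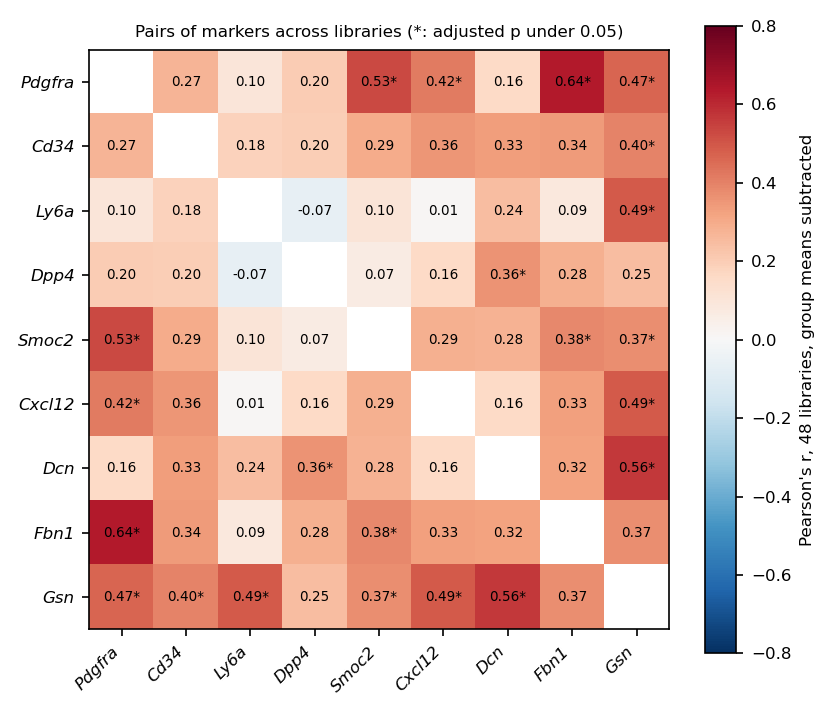
Pearson's r between pairs of the 9 progenitor genes over 48 libraries with group means subtracted, coloured by r, and an asterisk for an adjusted permutation p under 0.05. The warmest cell is Pdgfra with Fbn1 at 0.64, and the row of Ly6a is the palest apart from its pair with Gsn at 0.49.

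The genes outside the list whose pattern over the 48 libraries was most like each of the 9 were found by the root mean square difference of group-centred, SD-scaled log2 CPM. Over all genes the median difference was between 1.39 and 1.41 SD for each of the 9. The closest to Fbn1 was Col1a2, a chain of type I collagen, at 0.638 SD, followed by Fn1 and Ltbp4. Gsn was closest to Serping1 at 0.631 SD, and Pdgfra to Nid1, a basement membrane nidogen, at 0.649 SD. The closest to Dcn were Timp2, Abi3bp and Ogn, to Cd34 Fn1, Pi16 and Cd74, to Smoc2 Igfbp7, Clmp and Cds2, and to Ly6a Rras, Ifitm3 and Srxn1. Cxcl12 was closest to Afdn, at 0.795 SD, and Dpp4, the gene with the fewest counts, to Bscl2, at 0.913 SD.

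Other progenitor markers were read from a second list of 29 genes, of which 28 were tested. In Cort_CON, 20 were lower and 1 was higher than in EtOH_CON, with a median log2 fold change of -0.87. In Cort_ATGLi, 20 were lower and 0 higher than in EtOH_ATGLi, with a median of -0.60. Serpinf1, which encodes the secreted factor PEDF, fell by 1.91 on control food and by 1.97 on atglistatin, and Pcolce, an enhancer of procollagen processing, fell by 1.41 and 1.06. Thy1, Cd248, Pi16 and Clec3b, chosen after their values were seen, had log2 fold changes of -2.20, -2.11, -1.68 and -1.70 on control food. The gene that was higher was Ly6c1, at 0.27 (adjusted p = 0.0187), whose transcripts share sequence with Ly6a. Osr1, Gli1, Mme, Tcf7l2, Itgav and Sema3c did not pass on either diet.

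In the PDGF pathway, 3 of 6 genes were lower on control food and 2 of 6 on atglistatin. Pdgfa, a ligand of the receptor, fell by 0.74 in Cort_CON and by 0.63 in Cort_ATGLi, and Pdgfrl, a receptor-like gene, fell by 1.15 and 0.95. Pdgfrb, the beta receptor of pericytes, fell by 0.60 on control food and had a log2 fold change of -0.34 on atglistatin (adjusted p = 0.0674). Pdgfb had -0.51 and -0.41, Pdgfd -0.31 and -0.52, and Pdgfc 0.36 and -0.20, on control food and on atglistatin, and none of the 3 passed.

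In the Cxcl12 axis, the scavenger receptor Ackr3 fell on both diets, by 1.02 in Cort_CON and by 0.98 in Cort_ATGLi. The signalling receptor Cxcr4 had log2 fold changes of 0.13 and 0.14 and did not pass, with a mean of 1.71 CPM in Cort_ATGLi. Cxcl14, a related chemokine, fell by 0.56 on control food and had -0.23 on atglistatin (adjusted p = 0.140).

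Around Fbn1, 11 of 15 microfibril and elastic fibre genes were lower and 2 higher on each diet. Loxl1 fell by 1.65 in Cort_CON and by 1.07 in Cort_ATGLi, and Ltbp4, which binds latent TGF-beta, had log2 fold changes of -1.242 in Cort_CON and -1.03 in Cort_ATGLi. The 2 higher genes on control food were Lox, a crosslinking enzyme, at 0.90 and Ltbp3 at 0.33. Around Dcn, 10 of 16 genes of small proteoglycans and TGF-beta signalling were lower and 2 higher on each diet, with Kera at -3.35 and Podn at -1.79 in Cort_CON, and with the receptors Tgfbr1 at 0.57 and Tgfbr3 at 0.33 as the 2 higher genes there. Of 13 collagen genes, 13 were lower in Cort_CON and 11 in Cort_ATGLi.

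The gene families of the other members did not move in 1 direction. In the gelsolin and thymosin list, 3 genes were higher and 3 lower on control food. Tmsb10 was at -1.68, Tmsb4x at -0.80 and Svil, chosen after its value was seen, at 0.44. In the Ly6 list, 2 of 5 genes tested were higher and 3 lower on control food, with Lynx1 at -0.997 and Gpihbp1 at 0.45. In the dipeptidyl peptidase family, Fap fell by 1.503 and Dpp8 rose by 1.12 in Cort_CON. Of 5 relatives of Smoc2 tested, 3 were lower and 1 higher on control food, and 2 were lower and 1 higher on atglistatin. Fstl1 and Sparcl1 fell by 1.73 and 0.93 on control food. Sparc, named after its values were seen, fell by 0.63 on control food, and its interaction was 0.70 (adjusted p = 0.0121 by edgeR).

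Markers of other muscle cells moved as well. Of 8 tendon markers, 6 were lower and 1 higher in Cort_CON, and Cilp2 fell by 3.77. Of 10 endothelial markers, 5 were lower and 1 higher on each diet. In Cort_CON, Kdr was at -0.72, Tek at -0.86 and the higher Flt1 at 0.57. The endothelial markers summed to between 131 and 286 CPM in Cort_CON, against between 193 and 240 CPM in EtOH_CON, so the groups overlapped. On control food 6 of 10 leukocyte markers, 6 of 8 smooth muscle and pericyte markers and 3 of 8 Schwann cell markers were lower in Cort_CON, beside 19.5% of all genes. On atglistatin 5, 3 and 0 of them were lower in Cort_ATGLi, beside 15% of all genes. In these 3 lists 0 genes were higher on either diet.

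Of 6 satellite cell markers 3 were higher and 2 lower, with Cdh15 at 0.83. Among adipocyte markers, Lep was higher at 2.03 and Cfd was lower at -2.12 on control food. Among genes of bone and cartilage, Sox9 rose by 2.41 while Alpl fell by 1.22. How far these cell types account for the progenitor genes was not tested.

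**Figure D5:**
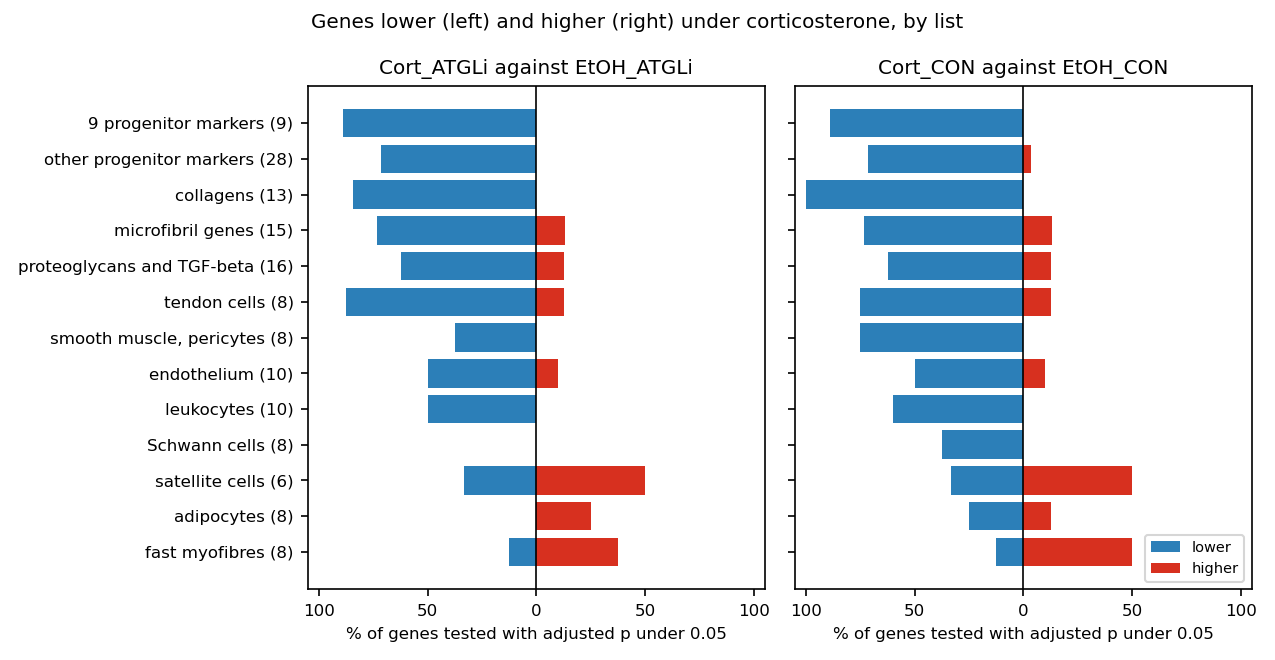
Share of genes tested in each list (number in brackets) that were lower (left) or higher (right) under corticosterone, with x axes in percent, for the atglistatin diet (left panel) and control food (right panel). The 9 progenitor genes, the other progenitor markers, the collagens and the tendon markers have mostly lower genes, with 1 tendon marker higher on each diet. The satellite cell and fast-fibre lists have more higher than lower genes on each diet, and the adipocyte list has 1 higher and 2 lower on control food and 2 higher and 0 lower on atglistatin.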

How the data were processed

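RNA from powdered muscle was made into QuantSeq 3′ libraries and read as 50 bp forward reads, per the labels. The deposited values are raw counts, whole-number reads per gene. Per the submitters' processing notes, reads were placed on GRCm38, with R 3.6.1 and DESeq2 1.24.0 as tools. Which aligner, counter, strand setting and annotation the authors chose was not given in the sources used here, so reads of a gene and of an antisense partner may not have been kept apart. A second deposited table of normalized signal, each value a count over a size factor, was not tested.

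The 9 genes, the other lists and the tests were chosen with earlier results of these data known. Genes were filtered with filterByExpr (minimum count 10, minimum total 15), scaled by TMM and tested with edgeR 4.0.16's quasi-likelihood test, robust, two-sided, fitting all 4 groups (48 libraries) together, and Benjamini-Hochberg adjustment over all 12592 genes tested. For disease state Cort_CON was split, which gave 13084 tested genes. The test was run on simulated counts first. Printed CPM are on TMM-scaled library sizes, SE is the fold change over the square root of F, and no interval covers more than the spread between libraries. Counts had no molecular identifiers named in the labels.

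The rule was to name from each other list the 2 genes with the smallest p in Cort_CON against EtOH_CON. It was not kept for every list. For the collagens and the leukocyte, Schwann cell and fast-fibre markers, among others, neither gene is named. Every gene of the PDGF and Cxcl12 lists is named, with up to 3 genes most like each of the 9, and Fkbp5. Other genes named were chosen after their values were seen. Correlations and ratios used log2 CPM with a prior count of 2 and permutation tests with 100000 resamples. Alternatives were DESeq2 1.42.0, limma 3.58.1 voom, other scaling and filters, halved counts, fewer groups, a replicate block and each library left out. Symbols were paired with 14094 of the 14125 gene identifiers.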

Additional observations from a re-analysis of the deposited data

Results flagged for a closer look

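Each of the 9 genes was screened by Dixon's criterion in both vehicle groups and in the diabetic and the nondiabetic Cort_CON mice. Cort_ATGLi was too large for the criterion and was not screened, so Ly6a in p41 was not eligible. In 3 of the 36 sets, each 1 gene in 1 group, a single library lay far from the rest, which chance meets in about 1 of 20 sets. Among the 5 nondiabetic Cort_CON mice, p49 had 24.8 CPM of Cxcl12, where the next library had 16.9 CPM, and 821 CPM of Dcn, where the next had 578 CPM. The 9 genes together summed to 1696 CPM in p49, the highest of the 14 Cort_CON libraries. Most of that sum was Dcn itself and Gsn, at 732 CPM, while Ly6a in p49, at 19.9 CPM, was the lowest of Cort_CON. In EtOH_CON, p10 had 1033 CPM of Gsn, where the next library had 792 CPM. The sum of the 9 genes in p10, 2261 CPM, was the highest of its group, and most of it was Gsn itself and Dcn, at 957 CPM. The leukocyte markers of p10, at 181 CPM, and its adipocyte markers, at 790 CPM, were also the highest of EtOH_CON. Their part in the Gsn value was not tested.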

How the results depend on the processing

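The count of genes among the 9 that passed stayed at 8 on each diet, all lower, and at 0 in the other comparisons under DESeq2 size factors, DESeq2, limma voom, no filter, a mean of at least 1 CPM, halved counts and fits of only the compared groups. Leaving out each library gave 8 on control food and between 8 and 9 on atglistatin, the 9 without Cort_ATGLi p41. Without EtOH_CON p01, EtOH_ATGLi p13 and Cort_ATGLi p41 together, chosen after seeing the data, the counts were 8 and 9. In that setting 6 and 2 ratios to Pdgfra were lower. EtOH_ATGLi p13 is the library with odd counts, and its 9 genes summed to 2254 CPM, the highest of its group. Most of that sum was Dcn, at 1125 CPM, and Gsn, at 896 CPM. The tendon markers of EtOH_ATGLi p13 were also the highest of its group, at 570 CPM, where the next library had 367 CPM. Replicate numbers are shared by p09 to p12 and by p13 and p14. Same-numbered libraries correlated between -0.060 and 0.15, and ranked between 1 and 8 among the 10 libraries of the second group. With so few shared numbers, this check cannot tell if the numbers pair the mice. With the replicate block 0 of 9 genes passed between EtOH_ATGLi and EtOH_CON and 8 between Cort_ATGLi and EtOH_ATGLi, where Pdgfra lost its call and Ly6a gained one, as they did in the same 4 libraries unblocked. Signs of genes that passed in neither fit were not compared.

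Counts over all genes depended more on the fit. Between EtOH_ATGLi and EtOH_CON they were 3, against 22 with DESeq2, 30 with limma voom, 38 with only those groups and 23 with halved counts, and between 1 and 21 with 1 library out. The 8 libraries with shared numbers alone gave 21 with the block and 0 without it by edgeR, where 980 genes had an unadjusted p under 0.05 and no other tool was run. Between Cort_ATGLi and Cort_CON they were 201, against 78 with only those groups and 122 with nondiabetic Cort_CON, and between 125 (without Cort_ATGLi p23) and 354 (without Cort_CON p45) with 1 library out. With nondiabetic Cort_CON against EtOH_CON they were 2869, against 4838. Between Cort_ATGLi and EtOH_ATGLi they were 3781, and the 4 libraries with shared numbers alone gave 1880 with the block and 1555 without it. For the interaction they were 5, against 8 with DESeq2 and between 2 and 7 with 1 library out. The causes were not tested. Depth limits Dpp4, with as few as 8 counts in a library.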
